A study of Mus musculus with 48 samples.

Results

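The major urinary proteins (MUPs) are small secreted lipocalins that the mouse liver releases into the blood and the kidney passes into the urine, where they bind volatile pheromones. Their genes lie as an array of near-copies on chromosome 4, and in adult males they are among the most abundant transcripts of the hepatocyte. The pulsed growth hormone of males, acting through its receptor and STAT5B, is known to keep them high. 7 of these genes are described here, Mup1, Mup2, Mup3, Mup7, Mup11, Mup20 and Mup21, out of 55416 genes counted in each liver. They were found by the Ensembl identifiers of their mouse symbols. All 7 passed the filter on low counts.

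The livers came from 48 mice, 8 in each of 6 genotype groups. DN:WT, DN:HET and DN:HOM carried 0, 1 or 2 copies of Nr1h3 with the W441R change, a dominant-negative knock-in of the nuclear receptor LXRα made by CRISPR in C57BL/6J embryos and carried through the germline. KO:WT, KO:HET and KO:HOM carried 0, 1 or 2 null alleles of Nr1h3, in a line once mixed with Sv129, backcrossed to C57BL/6 and kept at another site. Every label gives the strain as C57Bl/6J. All mice, the wild-type ones included, were bred from heterozygous pairs and ate a western diet for 8 weeks, from about 8 to 16 weeks of age, so no liver shows these genes on chow. The knock-in mice were male by the study's account, and all 48 livers had more Ddx3y than Xist. Site, line and study cannot be told apart, so homozygous and heterozygous livers were read against the wild-type livers of their own study.

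2 libraries went against their labels, and the study's published per-liver values hold neither. In the library labelled DN:WT animal 10, the markers of cholangiocytes, the cells of the bile ducts, summed to 1160 CPM where the other DN:WT livers had at most 70.8. In the library labelled DN:HOM animal 12 they summed to 43.4 CPM where the other DN:HOM livers had at least 723. CPM are counts per 1000000 reads on genes, scaled between livers. The Mup genes of both stood on the same side, with 16090 CPM of Mup20 and 1409 CPM of Mup3 in animal 10 and 4023 and 9910 CPM in animal 12, so leaving these libraries out bears on whether the groups overlap for the members. As the published values for those target genes leave them out, values below are given over the other 46 livers and again over all 48. The 46 are 7 each in DN:WT and DN:HOM and 8 in every other group. Neither library was moved to another group. Reads on genes lay between 5332897 and 16961379 per liver, and only KO:HET animal 3 and KO:HOM animal 17 had fewer than 10000000. Nr1h3 had 25.3 to 31.1 CPM in KO:HOM and 81.5 to 108 CPM in KO:WT livers, and 68.5 to 77.4 CPM in DN:HOM and 82.1 to 96.9 CPM in DN:WT livers.

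All 7 genes lie on the minus strand of chromosome 4 of GRCm39. From the proximal end they are Mup7 (ENSMUSG00000073842, chr4:60066445-60070490), Mup2 (ENSMUSG00000078688, chr4:60135925-60154325), Mup1 (ENSMUSG00000078683, chr4:60453986-60458057) and Mup11 (ENSMUSG00000073834, chr4:60614440-60618509). Then come Mup3 (ENSMUSG00000066154, chr4:61947447-62005620), Mup20 (ENSMUSG00000078672, chr4:61968464-61972395) and Mup21 (ENSMUSG00000066153, chr4:62066056-62069175). All are protein-coding. Their reference transcripts have 7 exons, or 6 in Mup21, and 865 to 1066 bases. Mup20 lies inside the annotated span of Mup3 and shares no exon with it. Around them the annotation lists 22 protein-coding Mup genes and 26 Mup pseudogenes within 2.21 Mb.

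The copies differ little, and where they differ decides which reads can be given to one gene. Mup1, Mup2, Mup7 and Mup11 shared 98.3% to 99.4% of their coding bases with one another, and Mup3 shared 95.4% with Mup21. Mup20, which encodes darcin, the pheromone protein of male urine, shared 89.8% to 91.3% with the former group and 87.1% with Mup3. The 60-base stretch of the coding sequence with the most differences among the 7 genes is shown, since it sets the kinds of copy side by side. Of its 60 columns, 25 differ. Each line is the coding strand of GRCm39, 5′ to 3′, with an intron removed, and capitals mark the bases that differ from Mup7. The stretch covers coding bases 212 to 271 of Mup1, Mup2 and Mup7, 215 to 274 of Mup11, Mup20 and Mup21, and 224 to 283 of Mup3.
Mup7 (chr4:60068934-60069751): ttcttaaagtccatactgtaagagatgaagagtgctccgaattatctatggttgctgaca
Mup1 (chr4:60456471-60457299): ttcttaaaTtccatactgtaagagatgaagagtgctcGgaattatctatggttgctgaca
Mup2 (chr4:60138420-60139237): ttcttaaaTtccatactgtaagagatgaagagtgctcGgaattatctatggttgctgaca
Mup11 (chr4:60616920-60617747): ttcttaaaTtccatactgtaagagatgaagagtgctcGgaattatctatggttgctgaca
Mup20 (chr4:61970906-61971735): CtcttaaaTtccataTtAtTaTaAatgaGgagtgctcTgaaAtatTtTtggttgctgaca
Mup21 (chr4:62067624-62068450): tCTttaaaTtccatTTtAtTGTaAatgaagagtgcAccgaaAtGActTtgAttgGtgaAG
Mup3 (chr4:62004229-62005055): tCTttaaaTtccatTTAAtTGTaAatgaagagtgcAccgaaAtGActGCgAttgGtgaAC
Mup1, Mup2 and Mup11 read the same throughout this stretch and each differ from Mup7 at 2 bases. Mup20 differs from Mup7 at 12 bases, Mup21 at 19 and Mup3 at 21.

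The authors' counts hold only reads that STAR placed at 1 position, so a read that fits 2 copies equally well was not counted for either. The reference transcript of each gene was therefore cut into every window of 100 bases, and each window was looked up in all other annotated Mup transcripts and in the sequence of the cluster outside the gene. Mup3 had 97.0% and Mup21 96.6% of windows found nowhere else. Mup20 had 35.3%, and its other windows recurred in transcripts of the pseudogene Mup-ps19 or within chr4:61867227-61878257, where Mup-ps19 and Gm70526 lie. Mup-ps19 itself had at most 1.23 CPM in any of the 46 livers. Among the near-identical genes the unique share was 21.1% in Mup1, 20.2% in Mup11, 17.9% in Mup7 and 2.6% in Mup2. So the counts of Mup3 and Mup21 stand for nearly their whole transcripts, and those of Mup1, Mup2, Mup7 and Mup11 stand for a small part of theirs. Levels of these 4 genes are uncertain and too low by an unknown factor, and a paired read or a sequence error can move a read between them. Read length was not given in the sources used here, and with windows of 150 bases the share was 9.2% in Mup2 and 54.3% in Mup20, and every window of Mup3 and Mup21 was unique. Reads placed at several positions made up 6.24% to 7.35% of each DN:WT and 6.37% to 8.13% of each DN:HOM library. Whether multiply placed Mup reads moved with genotype was not tested.

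**Figure D1:**
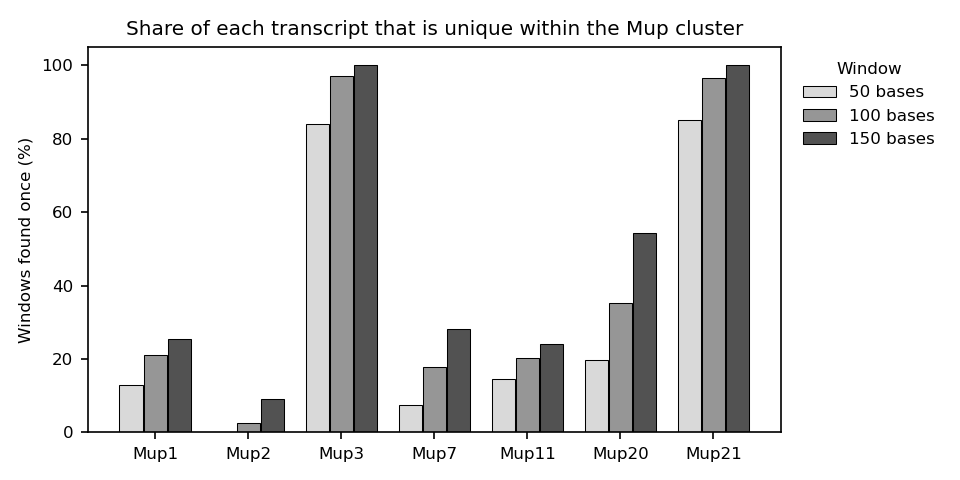
Bars give the percent of windows of 50, 100 and 150 bases in each gene's reference transcript that were found once, in the gene itself, when searched without mismatches through the other Mup transcripts and the cluster. Mup3 and Mup21 are mostly unique at every size, while no window of 50 bases in Mup2 is.

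Per kilobase of transcript, with only singly placed reads counted, Mup3 and Mup20 carried nearly all the signal. In DN:WT livers the median level was 11400 CPM per kb for Mup3 and 7069 CPM per kb for Mup20. Mup21 followed with 309 CPM per kb, Mup11 with 302 and Mup7 with 290, and Mup1 with 20.1 and Mup2 with 13.9 came last. In DN:HOM livers the median was 15290 CPM per kb for Mup20 and 1317 CPM per kb for Mup3. Mup21 had 99.0 CPM per kb there, Mup11 16.5, Mup7 1.28, Mup2 0.771 and Mup1 0.254. Mup20 and the 4 near-identical genes are counted from part of their length, so their levels are too low beside those of Mup3 and Mup21. Divided by the share of unique 100-base windows, the DN:WT medians would be 20000 CPM per kb for Mup20 and 11800 for Mup3, and with 150-base windows 13000 and 11400. Which of the pair was the more abundant in DN:WT livers is thus not settled, while in DN:HOM livers Mup20 was above Mup3 either way.

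DN:HOM livers had more Mup20 and less of each of the other 6 genes than DN:WT livers, and over the 46 livers the groups did not overlap for any of the 7. The comparison asks how the liver's urinary protein genes stand when both copies of LXRα are dominant negative. In bulk liver RNA, fewer hepatocytes and less Mup RNA in each hepatocyte cannot be told apart. Of the 7 genes, 6 fell at an adjusted p under 0.05, against 30% of all 15711 genes tested, and 1 rose, against 29.1%. Across the same genes the ranges of DN:HOM and DN:WT livers were apart in 33.5%. Over all 48 livers the same 7 genes were called in the same directions, where 48% of genes were called either way, and the ranges of all 7 then overlapped.

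Mup20 counts in DN:WT livers ran from 4904 CPM through a median of 6560 to 7332 CPM. Those in DN:HOM livers ran from 10180 through 14190 to 17730 CPM. Every DN:HOM liver but the library labelled animal 12 was above every DN:WT liver but the library labelled animal 10. DN:HOM livers averaged 13870 ± 2247 CPM (SD, n = 7) and DN:WT livers 6136 ± 1051 CPM (SD, n = 7). The fitted rise was 2.28-fold, or 1.19 ± 0.28 (SE) on the log2 scale, with a Benjamini-Hochberg adjusted p of 0.00029 in the quasi-likelihood test of edgeR. With the 2 libraries included the log2 fold change was 0.78 (adjusted p = 0.029, edgeR). Mup-ps19, the pseudogene that shares 100-base windows with Mup20, was also higher, with a log2 fold change of 1.27 (adjusted p = 0.0037, edgeR) at a median of 0.853 CPM in DN:HOM livers, and of 0.87 (adjusted p = 0.057, edgeR) with the 2 libraries included.

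Mup3, which is largely free of shared reads, went the other way. DN:WT livers had 8205 to 12740 CPM of it, with a median of 11160. DN:HOM livers had 836 to 1713 CPM, with a median of 1290. The highest DN:HOM liver was far below the lowest DN:WT liver. The log2 fold change was -3.14 ± 0.28 (SE; adjusted p = 1.1e-12, edgeR), or 8.80-fold lower. With those libraries it was -2.08 (adjusted p = 0.00012, edgeR). Mup21, the closest relative of Mup3 among the members and as free of shared reads, had 200 to 418 CPM in DN:WT livers with a median of 268. In DN:HOM livers it had 53.7 to 107 CPM with a median of 85.6, and the groups did not overlap. Its log2 fold change of -1.91 ± 0.33 (SE, adjusted p = 4.3e-06, edgeR) was the smallest of the 6 falls, and over all 48 livers it was -1.54 (adjusted p = 0.00037, edgeR).

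The 4 near-identical genes had the largest fitted falls, from -7.07 to -3.82 on the log2 scale. Mup7 had 82.6 to 434 CPM in DN:WT livers, with a median of 289. Its range in DN:HOM livers was 0.633 to 4.98 CPM with a median of 1.28, which is 14 to 101 reads a liver. The log2 fold change was -7.07 ± 0.92 (SE, adjusted p = 1e-08, edgeR), or 134-fold lower, the largest fall of the 7, and -3.86 over all 48 livers (adjusted p = 0.0016, edgeR). Mup1 had 10.8 to 37.5 CPM in DN:WT livers with a median of 21.4. DN:HOM livers had at most 1.28 CPM of it with a median of 0.271, and no read was counted in DN:HOM animal 9, where 3 reads would have been 0.136 CPM. Its log2 fold change was -5.74 ± 0.67 (SE, adjusted p = 6.9e-10, edgeR), and -3.33 over all 48 livers (adjusted p = 0.00043, edgeR).

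Mup11 and Mup2 differ in how widely livers of one group spread. Mup11 ran from 97.0 through 310 to 861 CPM in DN:WT livers and from 2.71 through 16.9 to 71.3 CPM in DN:HOM livers, so the ranges lay close and did not meet. Its log2 fold change was -3.86 ± 0.82 (SE, adjusted p = 8.6e-05, edgeR), and -3.31 over all 48 livers (adjusted p = 0.0011, edgeR). Over the 46 livers Mup2 was the steadiest member in DN:WT, with 10.1 to 14.8 CPM and a coefficient of variation of 11.2% against 73.5% for Mup11. In DN:HOM livers it had 0.197 to 2.02 CPM, 4 to 41 reads, with a median of 0.720. The log2 fold change of Mup2 was -3.82 ± 0.28 (SE, adjusted p = 3.7e-15, edgeR), and -2.33 over all 48 livers (adjusted p = 0.00024, edgeR). Only 2.6% of its 100-base windows are its own, so its counts rest on few positions.

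**Figure D2:**
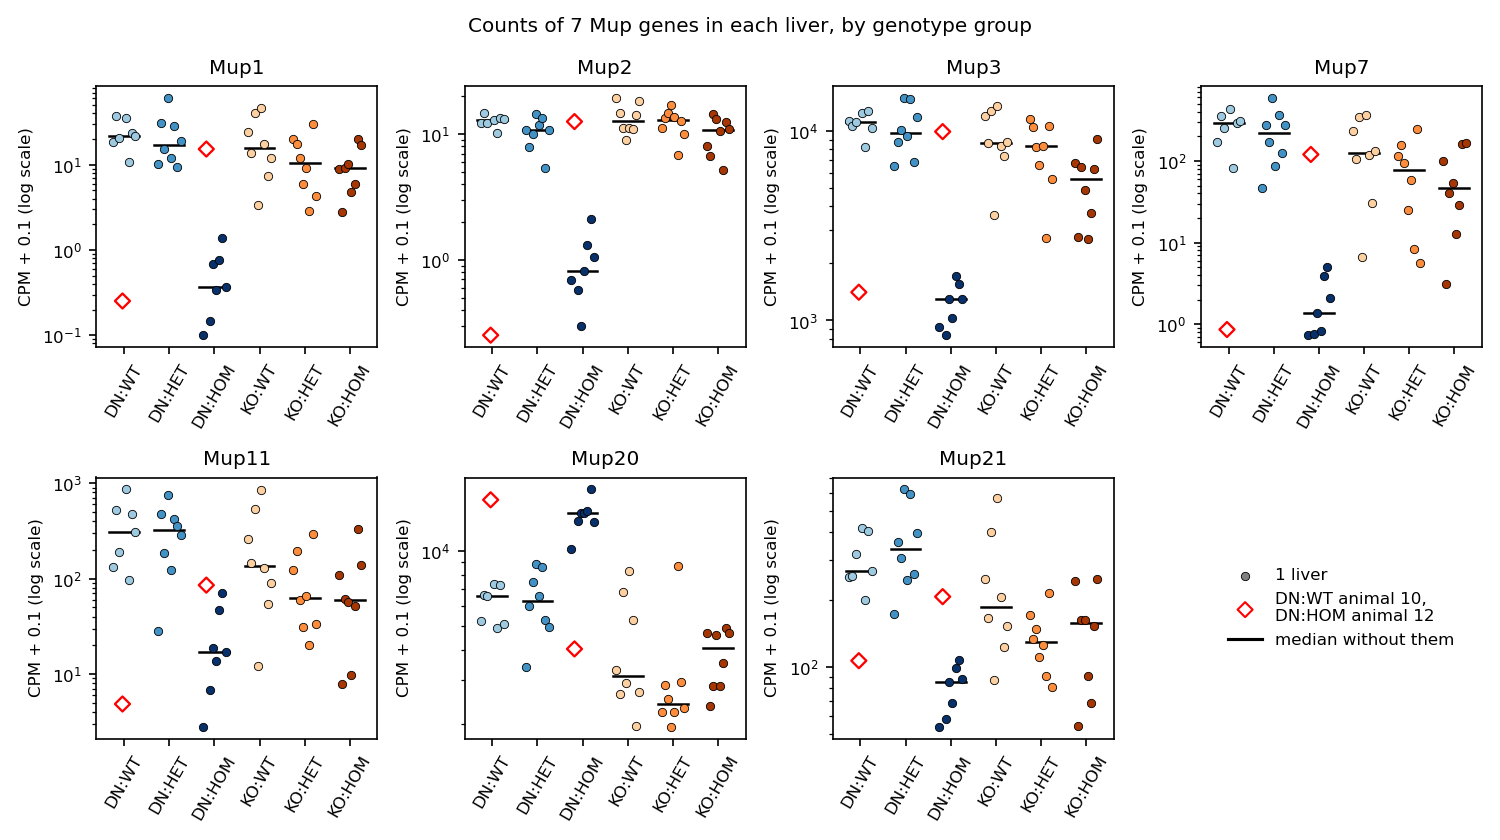
Each point is the CPM plus 0.1 of 1 liver on a log axis, in 1 panel per gene with the 6 genotype groups side by side. Black bars are medians over the 46 livers, and red diamonds are the libraries labelled DN:WT animal 10 and DN:HOM animal 12, which sit among the points of the opposite group in most panels. DN:HOM is lowest in 6 panels and highest in that of Mup20, where its livers lie between 10180 and 17730.

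The family's summed count moved less than its members. In DN:WT livers the 7 genes together had 13500 to 21500 CPM with a median of 18500, and in DN:HOM livers 11200 to 19500 CPM with a median of 15300, so the ranges overlapped. Without Mup20 the sums were 8610 to 14200 CPM and 902 to 1860 CPM, which did not. Mup20 made up 30.6% to 36.3% of the members' CPM in each DN:WT liver and 88.6% to 93.6% in each DN:HOM liver. In the library labelled DN:WT animal 10 its share was 91.4%, and in that labelled DN:HOM animal 12 it was 28%. The ratio of Mup20 to Mup3 counts was 0.464 to 0.622 in DN:WT, 8.48 to 15.8 in DN:HOM, 11.4 in animal 10 and 0.406 in animal 12. As this ratio is taken within a library, scaling between livers does not enter it. Since Mup20 counts leave out most of its windows, its share and ratio compare livers and do not give the true proportions of the transcripts. Of all reads on genes, the 7 members took 1.25% to 2.10% in DN:WT and 1.49% to 2.35% in DN:HOM livers.

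Counts were scaled on the assumption that most genes do not change, and that choice sets the size of the Mup20 rise. With library size alone the median gene moved from -0.01 to 0.42 on the log2 scale in this comparison. On that scaling Mup20 was at 1.61, Mup7 at -6.66, Mup1 at -5.33, Mup11 at -3.47, Mup2 at -3.40, Mup3 at -2.71 and Mup21 at -1.49, each still called and each on the same side of the shift.

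KO:HOM livers, which lack the receptor instead of carrying the dominant-negative form, had lower Mup3 than KO:WT livers, and this was the only member called among them. Mup3 had 3616 to 13600 CPM with a median of 8671 in KO:WT livers and 2700 to 9019 CPM with a median of 5561 in KO:HOM livers. The ranges overlapped widely, the log2 fold change was -0.83 ± 0.25 (SE), and the adjusted p was 0.013 by edgeR. Over all 48 livers it was -0.82 with an adjusted p of 0.17 by edgeR. The count of 1 of 7 compares with 7.87% of genes lower in this comparison, and 0 of 7 with 4.12% over all 48 livers, where 2 members had an unadjusted p under 0.05. No member's ranges were apart, against 2.55% of all genes. DESeq2 over the 46 livers also called 1 member.

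The other 6 genes were lower in KO:HOM livers by fitted value and did not pass the threshold. Mup11 had a log2 fold change of -1.44 ± 0.70 (SE, adjusted p = 0.15, edgeR), Mup7 of -1.24 ± 0.65 (SE) and Mup1 of -1.07 ± 0.46 (SE). For Mup21 it was -0.73 ± 0.30 (SE, adjusted p = 0.086, edgeR) and for Mup2 -0.44 ± 0.22 (SE). Mup20 had 1958 to 8333 CPM with a median of 3121 in KO:WT livers and 2369 to 4873 CPM with a median of 4063 in KO:HOM livers. Its median was the higher in KO:HOM and its mean the lower, and the fitted log2 fold change of -0.16 had a 95% interval from -0.67 to 0.34. The ratio of Mup20 to Mup3 was 0.264 to 0.811 in KO:WT and 0.445 to 1.06 in KO:HOM livers.

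Single livers decided several of these calls. Without KO:WT animal 23, the liver with the lowest Mup3 and Mup7 of its group, Mup1 and Mup21 joined Mup3, with adjusted p-values of 0.041 and 0.033. Mup11 was called without KO:HOM animal 27 (adjusted p = 0.04). Mup21 was called without KO:HOM animal 30 (adjusted p = 0.039) or without KO:HOM animal 8 (adjusted p = 0.048). Mup3 remained called with each of the 16 livers left out in turn, at edgeR adjusted p-values from 0.0029 to 0.036.

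**Figure D3:**
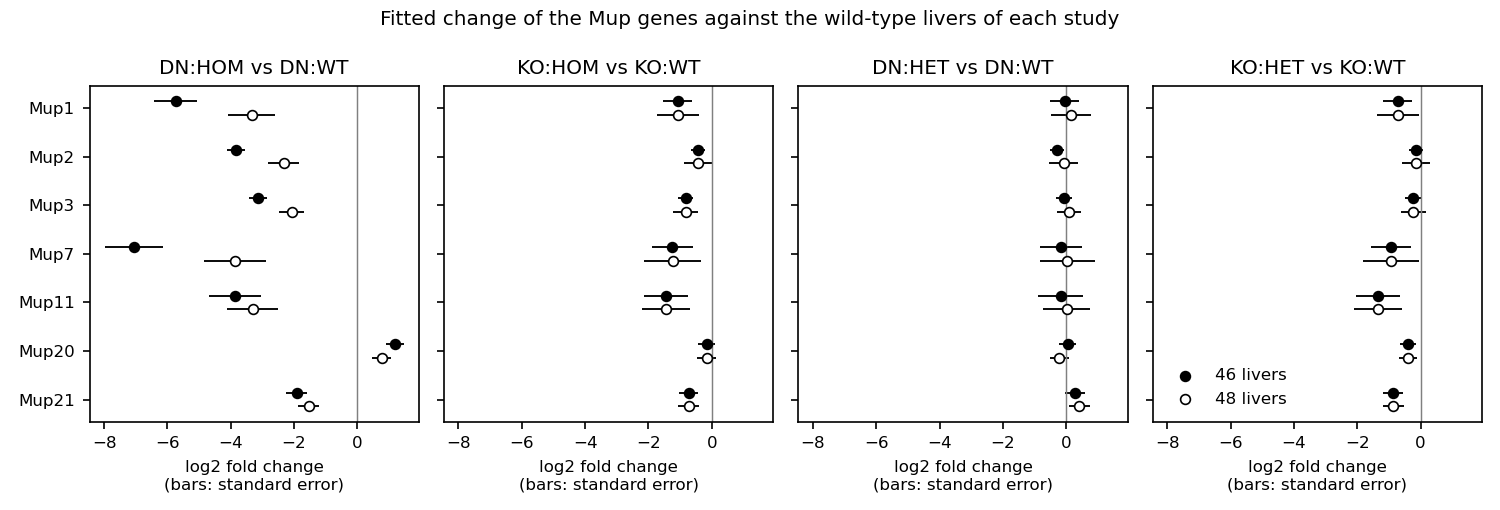
Points give the fitted log2 fold change of each gene with its standard error as a bar, in 4 panels for the homozygous and heterozygous livers of each study against their own wild-type livers. Filled points are from 46 livers and open points from 48. In the first panel Mup20 is right of 0 and the other 6 genes left of it, and the 2 libraries draw every estimate of that panel toward 0.

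The homozygous effect itself differed between the studies for 6 of the 7 genes over the 46 livers, against 34.7% of all genes. The difference of the log2 fold changes, knock-in minus knockout, was -5.82 ± 1.05 (SE) for Mup7, -4.67 ± 0.81 (SE) for Mup1, -3.38 ± 0.36 (SE) for Mup2 and -2.31 ± 0.36 (SE) for Mup3. It was -1.18 ± 0.45 (SE) for Mup21 (adjusted p = 0.036, edgeR) and 1.35 ± 0.38 (SE) for Mup20 (adjusted p = 0.0042, edgeR). For Mup11 it was -2.41 ± 1.02 (SE, adjusted p = 0.061, edgeR), which DESeq2 put at an adjusted p of 0.047. Over all 48 livers the same differences were -2.62 to 0.93 and edgeR called 0 of 7, against 10.5% of genes, with 5 members at an unadjusted p under 0.05. So the difference between the studies rests on leaving out the 2 libraries. These differences use the wild-type livers of both studies, which came from different sites.

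Neither heterozygous group had a member past the threshold. In DN:HET livers Mup20 had 3405 to 8835 CPM, Mup3 6490 to 14930 CPM and Mup7 46.6 to 593 CPM, and every member's range overlapped that of DN:WT livers. The log2 fold changes lay between -0.28 and 0.29 with edgeR adjusted p-values of 0.67 to 0.98, 0 members had an unadjusted p under 0.05, and DESeq2 called 0. In this comparison 2.30% of all genes were called. DN:HET and DN:HOM were set against the same DN:WT livers. The 95% intervals were widest for Mup11, from -1.55 to 1.21, and narrowest for Mup2, from -0.72 to 0.17. In KO:HET livers the changes lay between -1.34 for Mup11 and -0.14 for Mup2. Their edgeR adjusted p-values were 0.65 to 0.94, against 0.0191% of all genes called, and DESeq2 called 0. Mup21 was the 1 member with an unadjusted p under 0.05 (0.0066, adjusted p = 0.65, edgeR), at 81.0 to 213 CPM against 86.8 to 572 CPM in KO:WT livers.

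Across the 6 groups of the 46 livers, DN:HOM was outermost in the order of medians and apart from its neighbour for 4 of the 7 genes, as it was for 16.4% of all genes tested. With the 2 libraries included this held for 0 of the 7 and for 0.312% of all genes. Over the 46 livers it was lowest for Mup1 and Mup3, next above it KO:HOM, and lowest for Mup2, next above it DN:HET. For Mup20 it was highest, next below it DN:WT, and no other neighbours in the order of any of the 7 genes were apart. For Mup7, Mup11 and Mup21 DN:HOM was again lowest, and its range met that of the next group. The wild-type livers of the studies did not differ past the threshold for any member, with log2 differences of -0.11 to 0.69, DN:WT minus KO:WT, and edgeR adjusted p-values of 0.21 to 0.83. DESeq2 called 0 members there and 0 had an unadjusted p under 0.05, against 12% of genes called, and over all 48 livers Mup20 had one under 0.05.

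Over the 46 livers, wild-type livers of the knockout study spread further than those of the knock-in study. The highest liver had 55.7 times the Mup7 of the lowest in KO:WT and 5.26 times in DN:WT. For Mup11 the ratios were 71.2 and 8.88, and for Mup20 4.26 and 1.5. Mup2 varied least in both, by 2.17 and 1.46 times. With animal 10 among the DN:WT livers their ratios became 572 for Mup7, 181 for Mup11 and 97.3 for Mup2, above those of KO:WT, and 3.28 for Mup20, still below. KO:HET animal 9 stood apart within its group, with 8676 CPM of Mup20 where the next liver had about 2950, and with the group's lowest Mup3, 2719 CPM. Its Mup20 to Mup3 ratio of 3.19 was the highest outside the knock-in homozygotes and animal 10.

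**Figure D4:**
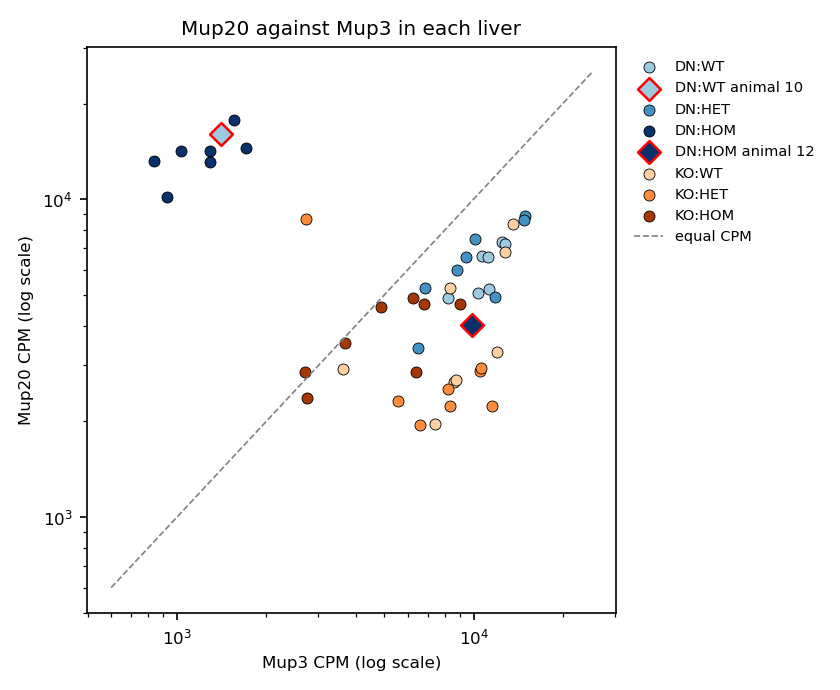
Each point is 1 liver, with Mup3 on the x axis and Mup20 on the y axis, both in CPM on log axes, and the dashed line marks equal CPM. The DN:HOM livers and the library labelled DN:WT animal 10 lie together at the upper left, with ratios of 8.48 and above, and DN:HOM animal 12 lies with the other groups at 0.406.

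Pooled over the groups, Mup1, Mup3, Mup7, Mup11 and Mup21 varied together around their group means, and Mup20 and Mup2 less so. After each group's mean was subtracted, Spearman's rho over the 46 livers lay between 0.816 (Mup3 and Mup11) and 0.935 (Mup1 and Mup7) for pairs of those 5 genes. For Mup20 against each of the 5 it lay between 0.465 (Mup3) and 0.638 (Mup21). For Mup2 it lay between 0.0158 (Mup20) and 0.473 (Mup3) against the other 6. This order did not hold within every group. In DN:WT livers alone rho was 0.393 between Mup3 and Mup1 and 0.321 between Mup3 and Mup7. There Mup20 had 0.714 (Mup7) to 0.857 (Mup11) against the 5 genes, and Mup2 had 0.857 against Mup1. With the group means left in, rho between Mup20 and the other 6 genes lay between -0.509 and 0.161. These are descriptions over livers that share their groups and their scaling.

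The genes outside the family most like the summed members over the 46 livers, by Spearman's rho of log2 CPM among 11711 genes, were Abca2 (0.792), C6 (0.749), Fbxo22 (0.737), Kcp (0.735) and Ppp1r9a (0.733). With each group's mean subtracted they were Susd4 (0.844), Slco1a1 (0.824), Tspan33 (0.792), Slc22a28 (0.790) and Hsd3b5 (0.788). Slco1a1, an organic anion transporter, and Hsd3b5, a steroid dehydrogenase, are male-biased liver genes, and C6 is a terminal complement component. Since Mup20 and the others went opposite ways, likeness to each kind was also read, a step chosen after the values were seen. With the group means left in, Gstp1, a glutathione transferase that is higher in male liver, was nearest to Mup20 (0.883), and Capn8 was nearest to Mup7 (0.925). With the group means subtracted these were C6 (0.748) and Hsd3b5 (0.881).

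The other genes of the family moved with the 6 members that fell. Of 15 further protein-coding Mup genes, 12 were tested, and all 12 were lower in DN:HOM than in DN:WT livers, where 30% of all genes were. Their median log2 fold change was -3.61, from -5.82 for Mup12 to -1.65 for Mup22. Mup15 and Mup17, the most abundant of them with means of 251 and 248 CPM, changed by -5.03 and -5.35. Mup8, Mup9, Mup14, Mup16, Mup18 and Mup19 lay between -5.28 and -2.50. In KO:HOM livers 3 of the 12 were lower, against 7.87% of all genes, Mup17 by -2.36, Mup15 by -2.29 and Mup18 by -2.27 on the log2 scale. With the 2 libraries back in, 12 were lower in DN:HOM livers, against 25% of all genes, and 1 in KO:HOM livers, against 4.12%. No other Mup gene was called in either heterozygous group by edgeR. Of 27 Mup pseudogenes 13 were tested, and in DN:HOM livers 11 were lower and 1, Mup-ps19, was higher, while with the 2 libraries 11 were lower and 0 were higher by edgeR. In KO:HOM livers 5 pseudogenes were lower, and 0 with the 2 libraries by edgeR. Between the wild-type groups 7 of the 13 were higher in DN:WT than in KO:WT livers, against 12% of all genes called there, and 1 with the 2 libraries. Many of these genes share windows with the 4 near-identical members, so only part of their transcripts is counted.

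More male-biased liver genes outside the family fell than rose in DN:HOM livers. Of 12 such genes, listed from general knowledge, 7 fell in DN:HOM livers, 1 rose and 4 did not pass, against 30% of all genes lower and 29.1% higher, with a median log2 fold change of -1.41 where the median of all genes was -0.01. These counts were the same over all 48 livers. The log2 fold change was -5.84 ± 0.96 (SE) for Hsd3b5, -3.51 ± 0.46 (SE) for Slco1a1 and -2.92 ± 0.41 (SE) for Elovl3, a fatty acid elongase. Gstp1 rose by 1.04 ± 0.24 (SE), from a median of 527 to 1170 CPM. In KO:HOM livers Slco1a1 and Elovl3 were lower, against 7.87% of all genes, and no gene of the list was higher, and over all 48 livers 0 of the 12 were called. Of 15 female-biased genes only 5 were tested, the rest having few or no reads. Of these, 4 fell, led by Cyp2b9 at -4.22 on the log2 scale and a median of 1.57 CPM in DN:WT livers, and Cyp2a4 rose from a median of 0.5 to 5.02 CPM. With all 48 livers, 2 fell, against 25% of all genes, and 1 rose, against 23%. Between KO:HOM and KO:WT livers 1 of the 5 was lower in KO:HOM, and 0 were higher by edgeR, over the 46 livers (7.87% of all genes lower) and over the 48 (4.12%). In the 46 it was Cyp17a1, at -1.80 ± 0.45 (SE) on the log2 scale with an edgeR adjusted p of 0.003.

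**Figure D5:**
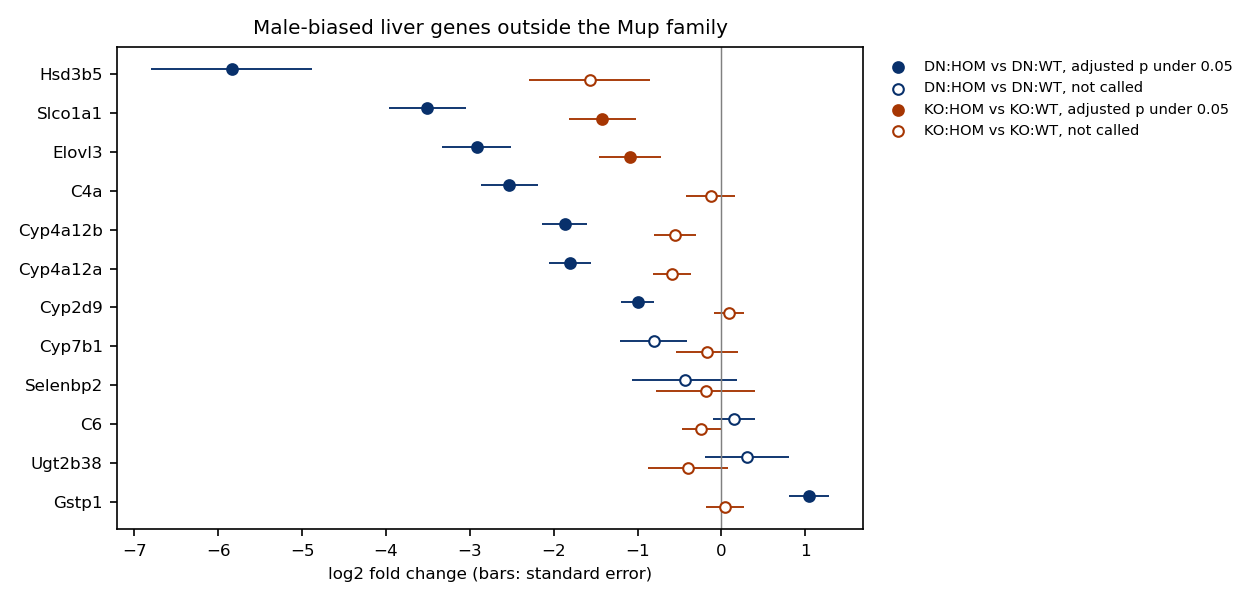
Points give the log2 fold change of 12 male-biased liver genes with the standard error as a bar, for DN:HOM against DN:WT livers in blue and KO:HOM against KO:WT livers in brown, over 46 livers. Filled points have an adjusted p under 0.05. In the knock-in study 7 genes are filled left of 0 and Gstp1 is filled right of it, and in the knockout study Slco1a1 and Elovl3 are filled.

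The growth hormone axis, which sets the level of these genes in male liver, had 3 of 12 genes higher and 4 lower in DN:HOM livers, shares near the 29.1% and 30% of all genes. Ghr, the growth hormone receptor, had a log2 fold change of -1.22, Prlr of -2.08, Igfals of -0.92 and Igf1 of -0.46. The 3 higher genes were Socs3, an inhibitor of the pathway, at 2.15, and its kinase Jak2 at 0.33 and transcription factor Stat5a at 0.27, while Stat5b at -0.19 did not pass. Including the 2 libraries, 1 was higher, against 23% of all genes, and 4 were lower, against 25%. In KO:HOM livers 3 were higher, Socs1, Socs3 and Jak2, against 11.5% of all genes, and 0 of the 12 were lower by edgeR, while with the 2 libraries 2 were higher, against 8.79%. Of 10 transcription factors of the hepatocyte, 6 were lower in DN:HOM livers, against 30% of all genes, among them Onecut1 at -1.56 and Cebpa at -0.73 on the log2 scale, and 4 were lower over all 48 livers, against 25%. Zhx2, another of these 10 factors, was at 0.03 and did not pass. Among 9 other lipocalins of the liver 8 were tested, with 5 higher and 3 lower, from Lcn2 at 4.76 to Orm3 at -1.96. The shares of all genes were 29.1% and 30%, and the counts were the same over all 48 livers, against 23% and 25%. In KO:HOM livers 3 were higher, among them Orm3 at 1.31, and 1 was lower, against 11.5% and 7.87% of all genes. Over all 48 livers 3 were higher there and 0 were lower by edgeR, against 8.79% and 4.12%.

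Markers of some other liver cells also changed in DN:HOM livers, while the summed levels of endothelial and lymphocyte markers overlapped those of DN:WT livers. Of 14 secreted or abundant hepatocyte products, 9 fell in DN:HOM livers and 2, Hp and Trf, rose, and their summed level was 96300 to 121000 CPM in DN:WT and 67600 to 76300 CPM in DN:HOM livers. The median log2 fold change of this list was -0.68, from Fabp1 at -1.93 to Hp at 1.40, with Alb at -1.14. All 6 cholangiocyte markers rose, with a summed level of 30.3 to 70.8 CPM in DN:WT and 723 to 1070 CPM in DN:HOM livers, and 1160 CPM in animal 10 and 43.4 CPM in animal 12. Of 8 stellate cell markers 7 rose (184 to 270 CPM against 775 to 1060 CPM), and of 11 macrophage markers 7 rose and 4 fell (212 to 421 CPM against 1010 to 1630 CPM). All 4 tested neutrophil markers rose (3.34 to 6.54 CPM against 29.5 to 80.4 CPM), with Ly6g at 0 in DN:WT livers. Of 6 endothelial markers 4 fell and 1 rose (108 to 150 CPM in DN:WT against 72.1 to 132 CPM in DN:HOM livers). Of 8 lymphocyte markers 3 rose and 1 fell (3.97 to 7.57 CPM against 5.38 to 8.17 CPM). These counts compare with 29.1% of all genes higher and 30% lower. Over all 48 livers the counts were as large for the hepatocyte, cholangiocyte and stellate lists. Of the other lists, 6 macrophage markers rose and 4 fell, 3 neutrophil markers rose, 1 lymphocyte marker rose and 0 fell, and 0 endothelial markers rose and 4 fell by edgeR, against 23% of all genes higher and 25% lower. The outermost log2 fold changes over the 46 livers were -7.74 for Clec4f, a Kupffer cell lectin, and 7.50 for Gpnmb among the macrophage markers. They were 0.20 for Lrat, which did not pass, and 3.50 for Col1a1, a collagen, among the stellate markers, and 1.98 for Sox9 and 4.57 for Spp1 among the cholangiocyte markers. For the neutrophil markers they were 1.96 for Csf3r and 4.51 for Retnlg, for the endothelial markers -0.80 for Kdr and 0.71 for Lyve1, and for the lymphocyte markers -1.14 for Ms4a1, which did not pass, and 1.93 for Cd3d. In KO:HOM livers, where Mup3 was lower, 6 of 11 macrophage markers rose and 3 fell (302 to 1170 CPM against 135 to 479 CPM in KO:WT), and 5 of 8 stellate markers rose (265 to 510 CPM against 174 to 414 CPM). There 5 of 8 lymphocyte, 3 of 4 neutrophil and 1 of 6 cholangiocyte markers rose too, against 11.5% of all genes. Of the hepatocyte products 7 of 14 were lower, against 7.87% of all genes, and 1 was higher (89100 to 109000 CPM against 112000 to 140000 CPM). Most of these KO:HOM counts were smaller over all 48 livers, where 5 macrophage markers rose and 2 fell, and 2 stellate, 5 lymphocyte, 1 neutrophil and 0 cholangiocyte markers rose by edgeR, against 8.79% of all genes. Of the hepatocyte products 2 were then lower, against 4.12%, and 0 were higher. The part of these cells in the Mup results was not tested. Mup20, like Hp and Trf of the hepatocyte list, was higher in DN:HOM livers, in which the sum of that list was lower.

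Promoter sequences were available for 5 of the 7 genes in the RefSeq table used (GRCm38.p6), which had no entry for Mup1 and Mup20. They fall into the same kinds as the coding sequences. Mup2 and Mup11 shared 99.6% of 272 aligned bases, and Mup3 and Mup21 93.9% of 294, while Mup3 and Mup11 shared 86.8%. Without a sequence for Mup20, the promoters of the genes that fell cannot be set against that of the gene that rose. One promoter of each kind is printed, from 250 bases before to 50 after the annotated start. Each is 5′ to 3′ on the minus strand, with the letters TATATAA in capitals.
Mup3 (chr4:62087268-62087567): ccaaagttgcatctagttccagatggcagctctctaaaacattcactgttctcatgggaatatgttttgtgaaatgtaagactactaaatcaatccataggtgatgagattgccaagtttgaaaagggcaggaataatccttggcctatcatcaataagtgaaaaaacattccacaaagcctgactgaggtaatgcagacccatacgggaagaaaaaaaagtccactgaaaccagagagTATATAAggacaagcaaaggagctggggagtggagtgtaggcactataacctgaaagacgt
Mup11 (chr4:60662346-60662645): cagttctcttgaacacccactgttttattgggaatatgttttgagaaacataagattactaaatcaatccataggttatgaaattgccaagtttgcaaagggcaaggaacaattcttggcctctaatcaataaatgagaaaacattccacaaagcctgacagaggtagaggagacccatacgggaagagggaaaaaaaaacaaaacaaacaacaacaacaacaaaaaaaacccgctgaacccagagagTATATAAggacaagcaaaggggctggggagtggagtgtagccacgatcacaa
On either strand TATATAA was found in 4 of the 5 windows, all but that of Mup7, whose window ends before the stretch that holds it in Mup2 and Mup11, and in 3.24% of the 32851 promoters of the table. TATAAA was in none of the 5 and in 13.62% of all. The spacing TTCNNNGAA, which STAT5 sites follow, was in none of the 5 and in 8.30% of all promoters. TTATGNAA, a C/EBP-like string, was in those of Mup2, Mup7 and Mup11 and in 3.38% of all. The DR4 repeat of LXR sites, AGGTCA, any 4 bases and AGGTCA again, was in none of the 5 and in 0.02% of all, and its core GGTCA in none of the 5 and in 40.48% of all. TATATAA began 2 bases before the annotated start in Mup11, 8 in Mup21, 11 in Mup3 and 27 in Mup2, so the windows are not in register. Such matches describe these letters in these windows.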

How the data were processed

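RNA of 48 livers was sequenced by the study from stranded mRNA libraries. The authors aligned the reads to GRCm39 with STAR 2.5.0a, as the submitters' processing notes say, and deposited raw counts of uniquely placed reads per gene, without normalization, unstranded and for each strand. Counts on the strand of the gene (column 4) were used here. Symbols came from GENCODE vM39, a later annotation, which named 98.8% of 55416 genes. The 4 summary lines of each library were left out. Their share without a gene was 24.0% to 35.0% of reads. No pair of livers held identical counts.

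The 7 members and all gene lists were chosen with earlier results of these data known. From the list of transcription factors 1 gene is not reported here and was left out of its counts. Genes were filtered with filterByExpr, scaled by TMM and tested with edgeR 4.0.16 (R 4.3.3) by a quasi-likelihood F test on 6 group means over 46 livers, with Benjamini-Hochberg adjustment over all 15711 genes and a threshold of 0.05. Replicates are single mice. Intervals of 95% are from the normal distribution. Sequences were aligned with MAFFT 7.526, and window searches allowed no mismatch. The code was tested on simulated data. Depth limits low members: 3 reads are 0.136 CPM in DN:HOM animal 9, the 1 liver in which a member had no read.

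Named are the 7 members, other Mup genes with a mean of at least 1 CPM, the extremes of each list, and the 5 genes most like the members by Spearman's rho (log2 CPM with a pseudocount of 1, among genes with a mean log2 CPM above 1), along with Nr1h3, Xist and Ddx3y. List genes named beside the extremes, and Mup-ps19, were chosen after their values were seen. The alternatives were all 48 livers, DESeq2 1.42.0, upper-quartile scaling, scaling without Mup genes, library size alone, no low-count filter, unstranded counts, the compared groups alone, leaving out the 2 livers under 10000000 reads and leaving out each liver in turn. Python 3.11.15 with pandas 2.3.3, numpy 2.4.6, scipy 1.17.1 and matplotlib 3.10.9 was used for summaries and figures.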

Additional observations from a re-analysis of the deposited data

Results flagged for a closer look

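3 livers stood far from the rest of their group by Dixon's test, among 42 groups of 7 or 8 livers examined, where chance alone marks about 1 in 20. Mup1 had 60.8 CPM in DN:HET animal 14, and the next liver had 30.5 CPM. Mup11 had 328 CPM in KO:HOM animal 27, with 137 CPM in the next. Mup20 had 8680 CPM in KO:HET animal 9, with 2950 CPM in the next.

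The homozygous effect differed between the knock-in and the knockout study for 6 members over the 46 livers, by edgeR's test of the difference itself. On the log2 scale, knock-in minus knockout, it was -4.67 for Mup1 (adjusted p = 1.4e-05), -3.38 for Mup2 (adjusted p = 5.7e-10) and -2.31 for Mup3 (adjusted p = 2.6e-06). For Mup7 it was -5.82 (adjusted p = 2.7e-05), for Mup21 -1.18 (adjusted p = 0.036) and for Mup20 1.35 (adjusted p = 0.0042). Over all 48 livers the lowest adjusted p among the 7 was 0.053.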

How the results depend on the processing

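The 7 calls in DN:HOM against DN:WT livers held under each alternative run and with each liver left out, where Mup20 stayed between 1.11 and 1.25. In KO:HOM livers the count of 1 became 0 over all 48 livers and 1 to 3 with single livers left out. The count of 6 for the difference between studies became 0 over all 48 livers and 5 to 7 with single livers left out. There Mup21 missed the threshold without any of DN:WT animals 13 and 21, DN:HOM animals 9 and 15, KO:WT animals 5, 23 and 33 or KO:HOM animals 8 and 30 (adjusted p up to 0.071), with library size alone (0.11) and with no low-count filter (0.051). Mup11 passed it with DESeq2 and without any of DN:WT animals 2 and 17, DN:HOM animals 31 and 33, KO:WT animals 14 and 31 or KO:HOM animals 11 and 22 (adjusted p down to 0.02). Directions turned only where no call was made. In DN:HET over all 48 livers the log2 fold changes were 0.147 for Mup1, 0.0885 for Mup3, 0.0323 for Mup7, 0.0183 for Mup11 and -0.21 for Mup20. With single livers left out they ran from -0.427 to 0.0956 for Mup1, from -0.461 to 0.189 for Mup11 and from -0.0281 to 0.149 for Mup20, and in KO:HOM from -0.265 to 0.0502 for Mup20. Of all 378 values under the other alternatives, the changed ones above included, 363 kept direction and side of the threshold. With a liver left out 709 of 742 did. The cause of these changes was not tested. No paired analysis was possible because replicates were numbered in accession order and the animals of the groups are not matched.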
